A study of Mus musculus with 6 samples.

Results

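The antioxidant response genes described here are 10 enzymes and transporters that protect cells from oxidants: Nqo1, Hmox1, Gclc, Gclm, Srxn1, Txnrd1, Gsr, Gpx4, Prdx1 and Slc7a11. They were taken by symbol from a deposited table of 23381 genes, and all 10 had a row. The RNA came from mammary tumours that 4T1 cells, a mouse mammary carcinoma line, formed in the inguinal mammary fat pad of Balb/c mice labelled as 10 weeks old. Each mouse was given 500000 cells and, once a tumour was established, was treated with Vismodegib at 2 mg per mouse or with DMSO, the vehicle, 3 times weekly for 3 weeks. The drug blocks Smoothened, the membrane protein through which Hedgehog signals pass. There were 3 Vismodegib and 3 DMSO libraries, and all 6 share the same cell line, strain and implantation site. The labels do not state that each library came from its own animal, so p-values measure the spread between these libraries, which may in part be technical. The comparison asks what blocking Smoothened did to these genes in the whole tumour, in which fewer cells of a type and less RNA per cell cannot be told apart.

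Many genes of this group are switched on by Nrf2 (gene Nfe2l2), a transcription factor that pairs with small Maf proteins on antioxidant response elements. Keap1 holds Nrf2 on a ubiquitin ligase built on Cul3 and has it degraded, until oxidants or electrophiles modify Keap1 and Nrf2 accumulates. Bach1 occupies the same elements as a repressor, above all at Hmox1, and leaves them when it binds heme. The amino acid stress factor Atf4 also drives Slc7a11. In tumours the pathway is known for resistance to oxidants, to drugs and to ferroptosis, a form of cell death by lipid peroxidation that Gpx4 prevents.

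Promoters of 7 of the 10 genes were found in the RefSeq table of build GRCm38.p6, which holds 250 bases before and 50 bases after each start. Those of Srxn1 and Prdx1 are shown because they matched TGANTCAGC, and that of Slc7a11 because it matched TGATGNAA, as defined next. Promoters of Gclm and Txnrd1 matched only TGACNNNGC and are not shown. Both strands were searched for TGANTCAGC, the element bound by Nrf2 with small Maf, for the looser core TGACNNNGC, which overlaps it where N is C, and for TGATGNAA, the core that Atf4 binds with C/EBP factors. TGANTCAGC also contains TGANTCA, the letters of an AP-1 site. In the sequences below, written 5′ to 3′ on the strand of the gene, matches to any of the 3 searches are in capitals. Srxn1 lies at chr2:152105274-152105573 on the plus strand, Prdx1 at chr4:116685349-116685648 on the plus strand and Slc7a11 at chr3:50443564-50443863 on the minus strand.
Srxn1: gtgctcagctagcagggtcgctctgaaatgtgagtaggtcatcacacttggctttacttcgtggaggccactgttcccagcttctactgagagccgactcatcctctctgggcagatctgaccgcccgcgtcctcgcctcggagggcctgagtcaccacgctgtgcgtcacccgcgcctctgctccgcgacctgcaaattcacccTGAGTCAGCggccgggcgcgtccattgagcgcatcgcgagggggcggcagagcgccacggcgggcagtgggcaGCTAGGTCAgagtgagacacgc
Prdx1: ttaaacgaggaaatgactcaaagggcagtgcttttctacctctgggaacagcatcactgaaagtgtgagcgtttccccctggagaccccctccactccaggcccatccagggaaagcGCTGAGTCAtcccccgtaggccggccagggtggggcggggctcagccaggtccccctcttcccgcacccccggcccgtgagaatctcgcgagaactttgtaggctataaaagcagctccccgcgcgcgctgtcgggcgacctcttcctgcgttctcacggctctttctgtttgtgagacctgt
Slc7a11: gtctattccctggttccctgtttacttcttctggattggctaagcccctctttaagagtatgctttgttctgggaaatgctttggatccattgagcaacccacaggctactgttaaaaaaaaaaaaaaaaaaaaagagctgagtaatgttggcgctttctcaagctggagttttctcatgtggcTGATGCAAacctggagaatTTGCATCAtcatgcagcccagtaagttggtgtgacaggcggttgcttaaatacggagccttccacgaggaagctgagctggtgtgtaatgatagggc
The 7 genes have 12 promoters in the table, and a gene was counted when any of its promoters matched. These counts of genes are therefore not on the same footing as the shares of promoters given beside them. TGANTCAGC matched in Srxn1 and Prdx1, 2 of the 7 genes, and in 1.19% of all 32851 promoters of the table. The match in Prdx1 is on the other strand and also fits TGACNNNGC. TGACNNNGC matched in 4 of the 7 genes (Gclm, Prdx1, Srxn1 and Txnrd1) and in 12.4% of all promoters. TGATGNAA matched only in Slc7a11 among the 7, at 2 places on opposite strands, and in 3.97% of all promoters. A match is a run of letters, not a shown binding site.

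None of the 9 genes that could be tested differed between Vismodegib and DMSO tumours beyond the spread between libraries, and all 10 had overlapping groups. Values are RPKM, read counts divided by gene length and by the library total. The 11818 genes whose mean reached 0.5 RPKM were tested by limma on log2(RPKM + 0.5), and p-values were adjusted by Benjamini-Hochberg over all of them. Of the 10 genes, 9 passed this filter, and Nqo1 did not. None of the 9 passed an adjusted p under 0.05, and the share of all tested genes that passed was 0.0%. At an unadjusted p under 0.05 none of the 9 passed either, against 266 genes, or 2.25%, of all tested. The groups did not overlap in 0 of the 10 genes, against 5.03% of all tested genes. Without DMSO replicate 1 they did not overlap in 3 (Gpx4 and Prdx1 higher, Gclm lower), where the share of all tested genes was 27.0%; without Vismodegib replicate 3 as well, the same 3 genes did so, against 42.4%. Of the 9 differences, 4 were above 0 and 5 below, with a median of -0.01, while 58.4% of all tested genes lay above 0 and their median was 0.05. Each difference is Vismodegib minus DMSO on the log2(RPKM + 0.5) scale, on which changes of low genes come out too small.

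The depth of the libraries, recovered from the steps between low RPKM values, was 41600000, 42700000 and 58000000 reads for Vismodegib replicates 1, 2 and 3 and 37500000, 34800000 and 40500000 reads for DMSO replicates 1, 2 and 3. The epithelial identity of the tumours was plain in all libraries: the 10 epithelial markers summed to 2777 to 2971 RPKM in Vismodegib and 1827 to 3009 RPKM in DMSO, with Krt18 at 828 ± 23.3 RPKM and 884 ± 222 RPKM (mean ± SD, n = 3 libraries each). Other cell types were present too. Macrophage markers summed to 801 to 2723 RPKM in Vismodegib and 1224 to 2145 RPKM in DMSO, most of it C1qa. Skeletal muscle markers summed to 66.3 to 122 RPKM in Vismodegib and 9.14 to 121 RPKM in DMSO, and adipocyte markers to 10.7 to 97.9 RPKM in Vismodegib and 7.70 to 15.9 RPKM in DMSO. Fibroblast markers summed to 109 to 221 RPKM in Vismodegib and 89.9 to 117 RPKM in DMSO, endothelial markers to 46.6 to 112 RPKM and 29.8 to 177 RPKM, T and NK cell markers to 17.99 to 22.6 RPKM and 15.3 to 29.4 RPKM, and B and plasma cell markers to 3.901 to 61.9 RPKM and 0.744 to 67.0 RPKM, Vismodegib first in each pair. DMSO replicate 1 was the lowest library in 31.7% of all tested genes, which bears on the genes it is lowest in below.

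The 10 genes spanned a wide range of levels. Gpx4 had the highest mean over the 6 libraries, 880 RPKM, and Prdx1 followed at 183 RPKM, above 99.4% and 97.4% of the genes tested. Hmox1 averaged 30.9 RPKM, Gsr 7.92 RPKM, Txnrd1 3.87 RPKM, Srxn1 3.53 RPKM, Gclm 1.64 RPKM, Gclc 0.926 RPKM, Slc7a11 0.632 RPKM and Nqo1 0.433 RPKM. The order from Gpx4 through Prdx1, Hmox1 and Gsr to Txnrd1 held in each of the 6 libraries, as did Srxn1 above Gclm. Txnrd1 and Srxn1 could not be ranked, since Txnrd1 was the higher of the pair in 4 of 6 libraries. The same held for Gclc over Slc7a11 and for Slc7a11 over Nqo1, each in 4 of 6, while Gclm lay above Gclc in 5 of 6. The coefficient of variation over libraries was 41.8% to 65.9% in the 4 lowest genes, Gclm, Gclc, Slc7a11 and Nqo1, and 17.7% to 32.6% in the others except Hmox1, which stood at 54.8%.

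**Figure D1:**
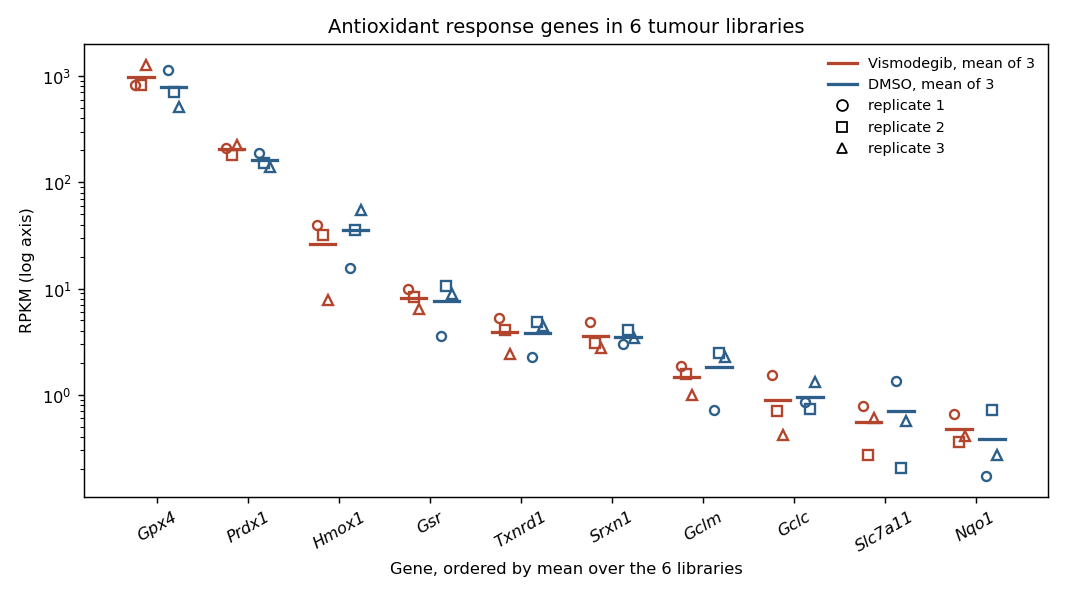
RPKM of the 10 antioxidant response genes on a log axis, ordered by mean; each symbol is a library (Vismodegib in red, left; DMSO in blue, right; symbol shape gives the replicate) and each bar the mean of 3 libraries. The red and blue symbols overlap for every gene, and Hmox1 spans 7.83 to 54.7 RPKM.

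Hmox1 encodes heme oxygenase 1, which opens the heme ring and frees iron, carbon monoxide and biliverdin (ENSMUSG00000005413.8, GRCm38 chromosome 8, 75093621 to 75100589, plus strand). Vismodegib replicates 1, 2 and 3 held 39.3, 32.2 and 7.83 RPKM, and DMSO replicates 1, 2 and 3 held 15.5, 35.9 and 54.7 RPKM. Vismodegib replicate 3 and DMSO replicate 1 were the low libraries and DMSO replicate 3 the high one, so that low and high values occurred in both groups. On the log2 scale Vismodegib minus DMSO came to -0.52, with 95% limits of -1.98 and 0.93 (limma, adjusted p = 1.0), which as a fold covers 0.254 to 1.91. Without Vismodegib replicate 3 it was 0.18. On the log2(RPKM + 0.5) scale its spread between libraries was the largest of the 9 tested members. The SD over the 6 libraries was 1.01, larger than in 96.8% of all tested genes, whose median SD was 0.36. That rank depends on the scale, which shrinks the spread of low genes. By coefficient of variation Slc7a11 stood higher, at 65.9% against 54.8% for Hmox1. For the longest annotated Hmox1 transcript of 1569 bases its RPKM values correspond to about 712 to 3473 reads. Counting error is small beside the spread of Hmox1.

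Nqo1 encodes a quinone reductase that uses NADPH or NADH and is widely used as an Nrf2 reporter (ENSMUSG00000003849.8, chromosome 8, 107388225 to 107403206, minus strand). It was low in every tumour, at 0.665, 0.362 and 0.411 RPKM in Vismodegib and at 0.172, 0.721 and 0.271 RPKM in DMSO. All treated values lay inside the range of the controls. Nqo1 has 1 annotated transcript, of 1553 bases, and on that length the values come to 43, 24 and 37 reads in Vismodegib and 10, 39 and 17 reads in DMSO. Counting error alone gives 95% intervals of 31.1 to 57.9 reads in Vismodegib replicate 1 and 4.8 to 18.4 reads in DMSO replicate 1 (exact Poisson). The exact two-sided permutation test gave p = 0.6 for a log2 difference of 0.18, where 0.1 is the smallest p that 3 against 3 libraries allow.

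Glutathione is built from cysteine, which Slc7a11 brings into the cell as cystine in exchange for glutamate, and the rate-limiting enzyme of its synthesis joins a catalytic subunit, Gclc, to a modifier subunit, Gclm. Slc7a11 (ENSMUSG00000027737.10, chromosome 3, 49892526 to 50443614, minus strand) stood at 0.792, 0.269 and 0.599 RPKM in Vismodegib and at 1.36, 0.206 and 0.570 RPKM in DMSO. Its highest and its lowest library were both DMSO tumours, 6.58-fold apart. The log2 difference was -0.12 (95% interval -0.99 to 0.75). Gclc (ENSMUSG00000032350.9, chromosome 9, 77754535 to 77794485, plus strand) was at 1.54, 0.708 and 0.421 RPKM in Vismodegib and at 0.851, 0.732 and 1.31 RPKM in DMSO, with the highest and the lowest library both among the treated tumours. Gclm (ENSMUSG00000028124.15, chromosome 3, 122245557 to 122270732, plus strand) was at 1.87, 1.57 and 0.995 RPKM in Vismodegib and at 0.722, 2.46 and 2.25 RPKM in DMSO. DMSO replicate 1 lay below the treated tumours and the other two controls above them. The log2 differences were -0.14 for Gclc (-0.90 to 0.63) and -0.15 for Gclm (-1.01 to 0.72), and neither passed (adjusted p = 1.0 by limma). The balance of the subunits moved between tumours, with a Gclc to Gclm ratio of 0.822, 0.451 and 0.423 in Vismodegib and 1.18, 0.297 and 0.581 in DMSO, and the groups overlapped.

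Gsr and Txnrd1 encode the reductases that return oxidised glutathione and oxidised thioredoxin to their working form with electrons from NADPH; Txnrd1 is a selenoprotein. Gsr (ENSMUSG00000031584.16, chromosome 8, 33652523 to 33698163, plus strand) was at 9.89, 8.25 and 6.42 RPKM in Vismodegib and at 3.60, 10.5 and 8.83 RPKM in DMSO. Txnrd1 (ENSMUSG00000020250.10, chromosome 10, 82833951 to 82897712, plus strand) was at 5.30, 4.05 and 2.41 RPKM in Vismodegib and at 2.26, 4.804 and 4.42 RPKM in DMSO. In both genes DMSO replicate 1 was the lowest of the 6 libraries and Vismodegib replicate 3 the next. The log2 differences were 0.19 for Gsr (95% interval -0.70 to 1.08) and 0.03 for Txnrd1 (-0.79 to 0.85).

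Prdx1 is a peroxiredoxin that reduces hydrogen peroxide with thioredoxin, and Srxn1 is sulfiredoxin, which repairs peroxiredoxins that have been overoxidised. Prdx1 (ENSMUSG00000028691.12, chromosome 4, 116685544 to 116700822, plus strand) was at 208, 181.7 and 225 RPKM in Vismodegib and at 189, 152 and 139.9 RPKM in DMSO. DMSO replicate 1 was above Vismodegib replicate 2, and this was the overlap between the groups. Vismodegib minus DMSO was 0.36 on the log2 scale (95% interval -0.22 to 0.94), with the smallest unadjusted p of the 9 members, 0.196 by limma (adjusted p = 1.0). Srxn1 (ENSMUSG00000032802.8, chromosome 2, 152105516 to 152111376, plus strand) was at 4.81, 3.09 and 2.74 RPKM in Vismodegib and at 2.98, 4.11 and 3.45 RPKM in DMSO. It was the member closest to no difference, with a log2 difference of -0.01 and an interval from -0.65 to 0.63. Prdx1 and Srxn1, the 2 genes whose promoters matched TGANTCAGC, had their lowest values in different libraries, DMSO replicate 3 for Prdx1 and Vismodegib replicate 3 for Srxn1, and in Vismodegib replicate 3 Prdx1 was at its highest.

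Gpx4 encodes the selenoenzyme that reduces lipid hydroperoxides with glutathione (ENSMUSG00000075706.10, chromosome 10, 80047166 to 80056439, plus strand). It was at 830.1, 826 and 1280 RPKM in Vismodegib and at 1137, 699.5 and 505 RPKM in DMSO. Vismodegib replicate 3 was the highest library, DMSO replicate 1 came next, and the other DMSO tumours were the lowest. Vismodegib minus DMSO came to 0.38 on the log2 scale, with 95% limits of -0.46 and 1.21 (limma, adjusted p = 1.0). The level carries a reservation, because 61.7% of the 50-base words of its longest transcript also occur in Gpx4-ps2, an annotated row of the table at 408, 388 and 371 RPKM in Vismodegib and 536, 250.5 and 260.1 RPKM in DMSO. Reads cannot be assigned between the pair with certainty. Summed, they came to 1238, 1215 and 1650.2 RPKM in Vismodegib and 1673, 950.0 and 765 RPKM in DMSO, with DMSO replicate 1 and Vismodegib replicate 3 still the highest. Prdx1 shares 7.48% of such words with Gm21399 and 6.33% with Gm7204, both below 1 RPKM in all 6 libraries, and no other member shared 5% or more with another gene.

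**Figure D2:**
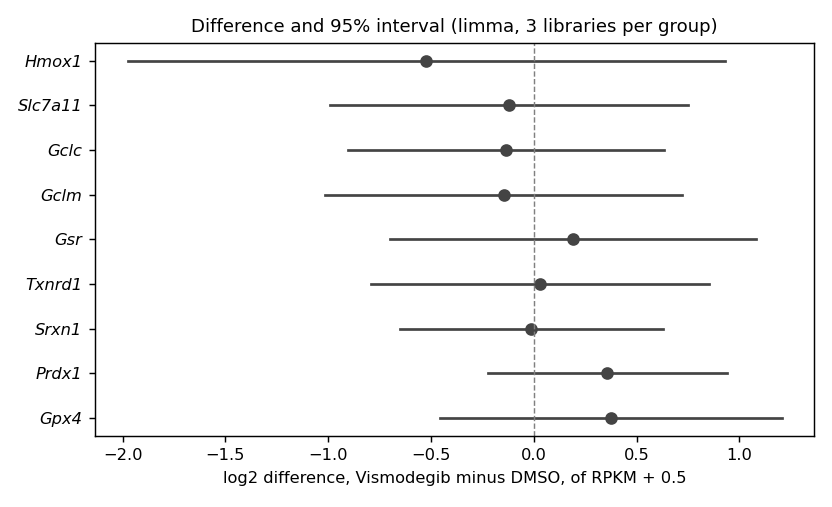
log2 difference between Vismodegib and DMSO tumours for the 9 tested genes, with 95% intervals from limma (n = 3 libraries per group); Nqo1, below the filter, is not drawn. Every interval crosses 0, from -1.98 to 0.93 for Hmox1 down to -0.22 to 0.94 for Prdx1.

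High and low libraries of these genes occurred in both groups, and they were not the same libraries for all 10. DMSO replicate 1 was the lowest library for 4 members (Nqo1, Gclm, Txnrd1 and Gsr) and Vismodegib replicate 3 for 3 (Hmox1, Gclc and Srxn1), while these libraries were lowest in 31.7% and 19.2% of all tested genes. In the opposite direction, Gpx4 and Prdx1 were highest in Vismodegib replicate 3, which was the highest library for 12.9% of all tested genes. Both were lowest in DMSO replicate 3, where Hmox1 was highest. The ratio of Gpx4 to Hmox1, which does not depend on the scaling of a library and was chosen after the values were seen, was 21.1, 25.7 and 163 in Vismodegib and 73.2, 19.5 and 9.23 in DMSO. It spanned 17.7-fold over the 6 tumours and did not separate the groups (exact two-sided permutation test of the log2 ratios, p = 0.5). Slc7a11 followed neither pattern and was highest in DMSO replicate 1, where Gsr, Txnrd1 and Gclm were lowest.

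**Figure D3:**
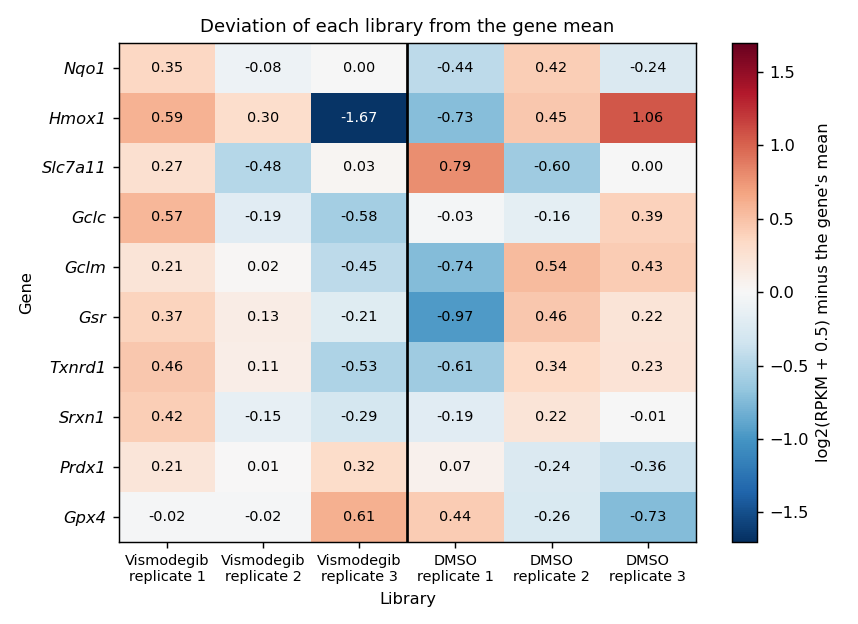
Deviation of log2(RPKM + 0.5) from the mean of each gene, by library (columns; Vismodegib left of the line, DMSO right) and gene (rows), red above and blue below the mean. Hmox1 stands at -1.67 in Vismodegib replicate 3 and 1.06 in DMSO replicate 3, while Gpx4 stands at 0.61 and -0.73 in the same libraries.

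Several measures moved in part with Hmox1 across the libraries. The neutrophil markers, 11 of 11 with a row, summed to 248, 201 and 108 RPKM in Vismodegib and to 70.0, 129 and 389 RPKM in DMSO, so that DMSO replicate 1 and Vismodegib replicate 3 were the low pair and DMSO replicate 3 the highest, as in Hmox1, although within the low pair the order was the other way round. S100a9, a calcium-binding protein abundant in neutrophils, was at 63.9, 71.3 and 7.86 RPKM in Vismodegib and 12.9, 58.8 and 129 RPKM in DMSO. Mmp9, the marker of this list with the highest mean, departed from Hmox1 and was lowest in DMSO replicates 1 and 2. It was at 116, 88.0 and 82.8 RPKM in Vismodegib and 37.9, 47.2 and 161 RPKM in DMSO. Ly6g, Camp and Ngp, which mark neutrophils and their precursors, were each at 0 in Vismodegib replicate 3 and in DMSO replicate 2. The 10 hypoxia and glycolysis genes summed to 724, 790.1 and 355 RPKM in Vismodegib and 334, 1094 and 1109 RPKM in DMSO, again lowest in DMSO replicate 1 and Vismodegib replicate 3. Pgk1 and Ldha made up most of this sum, and not all genes of the list followed it. Car9, at 9.04 RPKM, was lowest in DMSO replicate 2. Egln3 was at 34.5 RPKM in DMSO replicate 1 and 17.9 RPKM in DMSO replicate 2. Macrophages also make Hmox1, and of the 12 macrophage markers 11 had a row. Their sum ran the other way, 1643, 801 and 2723 RPKM in Vismodegib and 2145, 1224 and 1368 RPKM in DMSO, with Vsig4 at 0 in 5 of 6 libraries. Most of that sum is C1qa, and not all macrophage markers followed it. Cd68, chosen after its values were seen, was at 18.1, 8.03 and 6.21 RPKM in Vismodegib and 8.65, 20.9 and 14.6 RPKM in DMSO, and Cd163, chosen likewise, was at 0.757, 0.253 and 0.148 RPKM in Vismodegib and 0.171, 0.137 and 1.0004 RPKM in DMSO. Both were low in Vismodegib replicate 3, as Hmox1 was. The hemoglobins and other erythroid markers, which report blood and its heme, summed to 920, 419 and 559 RPKM in Vismodegib and 571, 563 and 641 RPKM in DMSO. The part of cell makeup, hypoxia and blood in the Hmox1 values was not tested.

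Base composition differed between the libraries as well. Across 11613 genes, the correlation of GC content with the deviation from the mean of the gene was -0.22, -0.35 and 0.29 in Vismodegib replicates 1, 2 and 3 and -0.04, 0.21 and -0.15 in DMSO, as a description over genes that share a library. Gpx4, whose longest transcript is 60.2% G and C, is the most GC-rich of the 10. After the dependence on GC content and length was taken out of each library, the log2 deviation of Gpx4 in Vismodegib replicate 3 was 0.34, against 0.61 as deposited, and DMSO replicate 1 became its highest library at 0.49. DMSO replicate 3 remained its lowest at -0.55. Hmox1 stood at -1.74 in Vismodegib replicate 3 and 1.15 in DMSO replicate 3.

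Of 12 regulators of the response 10 were tested, and 0 passed in either direction. Bach2, at 0.0251 to 0.288 RPKM, and Nfe2l3, at 0.174 to 0.667 RPKM, were below the filter and are named for that reason. Of the 10, 6 lay above 0 and 4 below, with a median of 0.09. Nfe2l2 was at 14.1, 8.22 and 6.13 RPKM in Vismodegib and 8.25, 5.61 and 7.66 RPKM in DMSO, with a log2 difference of 0.32. Keap1 varied little, at 18.7, 21.9 and 20.5 RPKM in Vismodegib and 20.9, 21.6 and 21.6 RPKM in DMSO. Bach1 was at 4.13, 3.28 and 2.16 RPKM in Vismodegib and 3.37, 0.752 and 3.26 RPKM in DMSO, where DMSO replicate 2 was the low library. Rbx1, the RING subunit that works with Cul3, averaged 23.2 ± 3.07 RPKM in Vismodegib and 17.9 ± 2.03 RPKM in DMSO (SD, n = 3 each) without overlap, and Maff, a small Maf partner, had a log2 difference of -0.43.

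The wider redox genes gave the same count. Over 11 lists with 125 genes, 117 were tested, 0 passed in either direction, and 7 had an unadjusted p under 0.05, where 2.25% of all tested genes did. In 6 of the 117 the groups did not overlap, all higher in Vismodegib, where 4.29% of all tested genes did so. The median of the 117 was 0.09, against 0.05 over all tested genes. Among other glutathione enzymes, 15 of 20 tested lay above 0, with a median of 0.31. Gpx3, the secreted glutathione peroxidase, was at 213, 87.8 and 225 RPKM in Vismodegib and 93.5, 51.0 and 53.6 RPKM in DMSO, with a log2 difference of 1.34 (limma, unadjusted p = 0.0115, adjusted p = 1.0); Vismodegib replicate 2 lay below DMSO replicate 1. Several marker lists also lay above 0, with 5 of 5 tested adipocyte markers above 0 (median 1.42), 7 of 7 muscle markers (median 1.15), 8 of 8 fibroblast markers (median 0.72), 4 of 4 endothelial markers (median 0.43) and 8 of 10 epithelial markers (median 0.56). Immune lists lay mostly below 0, with 2 of 8 macrophage markers above 0 (median -0.17), 2 of 9 neutrophil markers (median -0.15), 2 of 5 T and NK cell markers (median -0.04) and 1 of 4 B and plasma cell markers (median -0.46). No marker passed, and the part of cell makeup in the glutathione list was not tested. Ggt1, which starts the breakdown of extracellular glutathione, averaged 1.88 ± 1.08 RPKM in Vismodegib and 0.710 ± 0.235 RPKM in DMSO without overlap. Chac1, which degrades glutathione inside the cell and is an Atf4 target, was at 1.36, 0.801 and 0.232 RPKM in Vismodegib and 1.03, 7.49 and 2.81 RPKM in DMSO.

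Among other thioredoxin and peroxiredoxin genes, 5 of 10 lay above 0 (median -0.03). Prdx2, the red cell and cytosolic peroxiredoxin, averaged 280 ± 20.4 RPKM in Vismodegib and 223 ± 49.9 RPKM in DMSO without overlap, Prdx6 averaged 28.5 ± 5.87 RPKM and 21.7 ± 3.59 RPKM, and Prdx5 averaged 183 ± 21.1 RPKM and 293 ± 150 RPKM, Vismodegib first. Of 5 superoxide dismutase and catalase genes, 3 lay above 0 (median 0.25), with catalase, Cat, at 4.07 ± 1.11 RPKM in Vismodegib and 2.72 ± 0.680 RPKM in DMSO and differences of 0.25 for Sod1 and 0.27 for Sod3. Of 10 genes that supply NADPH, 5 lay above 0 (median 0.004), with differences of 0.48 for Nnt, -0.76 for Mthfd2 and 0.59 for Idh1. Of 13 tested heme and iron genes, 7 lay above 0 (median 0.06); the copper ferroxidase Cp had a difference of 0.84 (0.11 with DMSO replicate 2 left out, 0.29 with Vismodegib replicate 1 left out and 1.37 with DMSO replicate 1 left out), the ferrireductase Steap3 0.40 and ferrochelatase, Fech, 0.21.

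Among ferroptosis and cystine transport genes, 5 of 9 lay above 0 (median 0.04). Slc3a2, the heavy chain that carries Slc7a11 to the membrane, was at 49.0, 40.4 and 78.2 RPKM in Vismodegib and 51.6, 67.2 and 58.2 RPKM in DMSO, many times the level of Slc7a11 on the same per-length scale; it also serves other transporters. Acsl4, which loads membranes with oxidisable fatty acids, was at 43.3, 41.7 and 25.6 RPKM in Vismodegib and 26.9, 8.24 and 43.4 RPKM in DMSO, and Dhodh and Ptgs2 had differences of 0.34 and -0.52. Of 10 other quinone and aldehyde enzymes 8 lay above 0 (median 0.15), with 0.70 for Cbr3, 0.83 for Aldh3a1 and 0.42 for Ugdh. Of 11 genes for selenoproteins and their synthesis 10 lay above 0 (median 0.25); Selenos averaged 30.8 ± 4.996 RPKM in Vismodegib and 22.2 ± 1.51 RPKM in DMSO without overlap, and Selenok and Pstk had differences of 0.38 and 0.31. The hypoxia and glycolysis list had 5 of 10 above 0 (median -0.005), with differences of 0.28 for Pdk1, -0.45 for Pgk1 and -0.42 for Ldha.

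The amino acid stress genes lay on the other side, with 9 of 10 below 0 and a median of -0.49, and again 0 passed. The exception was Trib3, with a log2 difference of 0.27, which was also the only gene of the list whose groups did not overlap. Trib3 was at 13.98, 14.9 and 16.8 RPKM in Vismodegib and 13.7, 13.6 and 10.5 RPKM in DMSO. Among all tested genes 4.29% were higher without overlap. With libraries weighted by their spread, 420 of the 11818 tested genes passed. The weight was 7.28 for DMSO replicate 3 and 0.32 each for DMSO replicates 1 and 2. Under these weights Asns, Chac1 and Sesn2 of this list were lower in Vismodegib at an adjusted p under 0.05 by limma. Asns, asparagine synthetase, was at 5.14, 6.34 and 5.98 RPKM in Vismodegib and 6.27, 22.6 and 14.2 RPKM in DMSO, and Sesn2, a stress-induced inhibitor of mTORC1, had a log2 difference of -0.83. In Asns and Chac1 the high libraries were DMSO replicates 2 and 3, while DMSO replicate 1 lay inside the range of the treated tumours. Slc7a11 shares Atf4 as a regulator, and its promoter holds 2 matches to TGATGNAA. It was at its lowest, 0.206 RPKM, in DMSO replicate 2, where the summed list was highest, 411 RPKM. It was at its highest in DMSO replicate 1, where the summed list was lowest, 156 RPKM. Phgdh and Atf4 made up most of this sum, and not all genes of the list followed it. Atf4 was lowest in Vismodegib replicate 3, at 36.0 RPKM, and Asns in Vismodegib replicate 1, at 5.14 RPKM. After correction for GC content and length, the log2 deviation of Slc7a11 in DMSO replicate 2 was -0.12, against -0.60 as deposited, and its lowest library became Vismodegib replicate 2 at -0.66, so the low value in DMSO replicate 2 depends on that correction. DMSO replicate 1 remained its highest at 0.62.

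**Figure D4:**
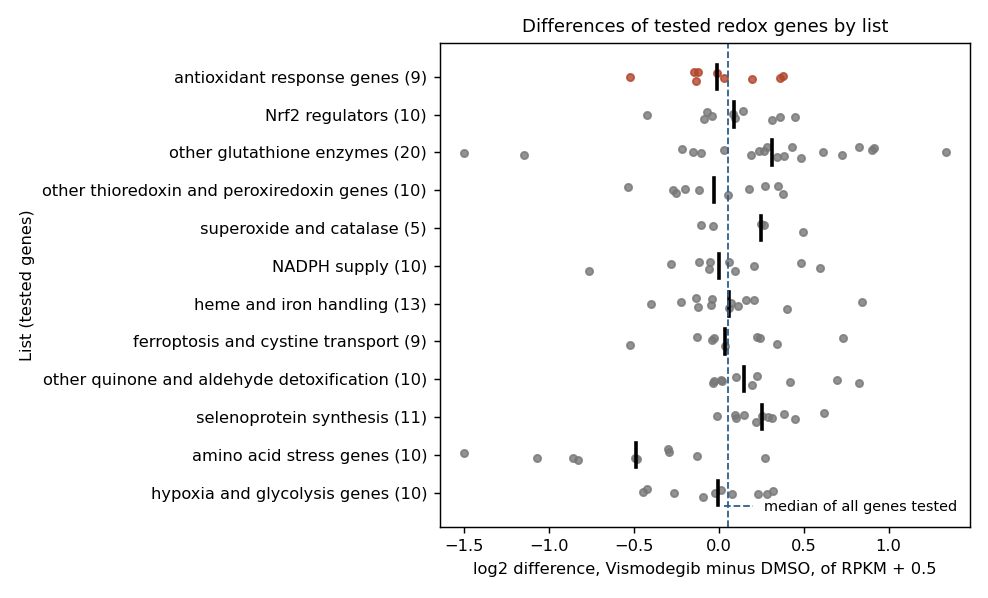
log2 difference between Vismodegib and DMSO tumours of each tested gene (points) by list, with list medians as black bars and the number of tested genes in brackets; the dashed line is the median of all genes tested, 0.05. The antioxidant response genes (red) run from -0.52 to 0.38, and none of the plotted genes passed an adjusted p under 0.05.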

How the data were processed

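The deposited values are RPKM for 23381 gene symbols in 6 libraries, as computed by the authors. The submitters' processing notes name build mm10 and the tools Partek, SAMtools, HISAT2, STAR, cutadapt and bcl2fastq 2.17, without a role for each. Which annotation and strand setting were used is not given in the sources used here. Because RPKM is scaled to the library total, a value also depends on what other genes contributed. The members and lists were chosen with earlier results of these data known. Of 12 macrophage markers, Marco had no row.

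In R 4.3.3, limma 3.58.1 compared the groups for genes whose mean reached 0.5 RPKM, using log2(RPKM + 0.5) (eBayes with trend, group only, two-sided, Benjamini-Hochberg adjustment over all genes tested). The fit was also tested on simulated data with known changes. The text names all 10 members, Nfe2l2, Keap1, Bach1 and Slc3a2. It also names up to 3 genes with the smallest p of each wider list and up to 2 with the highest mean of each marker list. Ly6g, Camp, Ngp and Vsig4 were named after their values were seen, for standing at 0, as was Marco. Cd68, Cd163, Bach2, Nfe2l3, Ggct, Gsta4, Mgst1, Mgst3, Trib3, Car9, Egln3, Phgdh and the level of Atf4 were also named after their values were seen.

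Depth was recovered from 6992 genes with 1 transcript in GENCODE M21 (GRCm38): the step taken as 1 read gives the library total. With these totals 84.3% to 85.7% of values up to 20 reads were whole within 0.02 reads. A total too high by a whole factor would pass this check. Gene positions, length and GC content came from GENCODE M21. Read counts and intervals cover counting error only. Alternatives covered pseudocount, filter, scaling, eBayes settings, a replicate block, library weights, GC content and length, and libraries left out.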

Additional observations from a re-analysis of the deposited data

How the results depend on the processing

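No antioxidant response gene passed under any of the alternatives run. Over all genes, where none passed, library weights gave 420 of 11818 genes (306 higher, 114 lower). Among them were 8 of the 117 tested wider redox genes (Asns, Chac1, Ggct, Gsta4, Mgst1, Mgst3, Mthfd2 and Sesn2). The replicate number as a block gave 1. Leaving out 1 library gave 0 to 19, the 19 without DMSO replicate 1. Leaving out DMSO replicate 1 and Vismodegib replicate 3 together, added after the data were seen, gave 3. limma weighted DMSO replicate 3 at 7.28 and DMSO replicates 1 and 2 at 0.32 each. Same-numbered libraries correlated at 0.0032, 0.0379 and -0.30 in their deviations from the group mean, so no pairing by number was seen. With 3 libraries per group these deviations depend on each other, and the check cannot decide whether the numbers pair the libraries. The block changed no call among the redox genes. Leaving out libraries gave 0 to 3 tested members without overlap. Beside the 3 without DMSO replicate 1, Gclc was lower without Vismodegib replicate 1, where 8.66% of all tested genes did not overlap. Prdx1 was higher without Vismodegib replicate 2, where the share was 11.5%. Nqo1, below the filter and not in this count, was higher without overlap when DMSO replicate 2 was left out, where the share was 13.8%. Some differences turned direction with libraries left out, with ranges of -0.45 to 0.12 for Gclc, -0.55 to 0.085 for Gclm, -0.24 to 0.47 for Gsr, -1.02 to 0.18 for Hmox1, -0.45 to 0.0906 for Slc7a11, -0.23 to 0.13 for Srxn1 and -0.265 to 0.30 for Txnrd1; of the other named genes, -0.085 to 0.9466 for Bach1, -1.07 to 0.0477 for Ldha, -0.87 to 0.0973 for Ptgs2, -0.4875 to 0.0768 for Slc3a2 and -0.26 to 0.66 for Sod3. Library weights turned Gsr to -0.0156, Sod3 to -0.29, Srxn1 to 0.0207 and Txnrd1 to -0.047. Txnrd1 was -0.0409 with median-ratio and -0.016 with quantile scaling, and Srxn1 was 0.025 once GC content and length were corrected for, with or without the replicate block. Without DMSO replicate 1 and Vismodegib replicate 3, Gclc was 0.0731, Gsr -0.0891, Sod3 -0.24 and Srxn1 0.0335. The causes were not tested. Requiring a mean of 1 RPKM leaves Gclc, Slc7a11 and Nqo1 untested. Slc7a11 also falls below the filter of 0.5 RPKM without DMSO replicate 1, whether or not Vismodegib replicate 3 is left out too. Depth limits Nqo1 most, at 10 to 43 reads.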
